A study of Mus musculus with 8 samples.

Results

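Centromere-proximal regions of mouse germline stem cells were taken from 8 peak lists of the histone marks H3K27me3 and H3K4me3 as the autosomal peaks that start below 8 Mb. Mouse chromosomes are acrocentric, so the centromere lies at the low-coordinate end, and the first 3 Mb of each chromosome are unassembled. No autosomal peak was listed below 3 Mb, so the proximal part covered 5 Mb on each of 19 autosomes, or 95 Mb. It held 7224 of the 227654 autosomal peaks. Merging the peaks of a mark where they shared at least 1 bp gave 2566 proximal regions of 79319 autosomal ones, with 837 of 26244 for H3K27me3 and 1729 of 53075 for H3K4me3. No peak crossed 8 Mb. The last 100 kb inside that boundary held 11 H3K27me3 and 25 H3K4me3 region starts, and the next 100 kb outside it held 19 and 34.

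The cells came from testes of Green mice, labelled C57BL/6 Tg14(act-EGFP)OsbY01, on a DBA/2 background, with the genotype given as wild type. Both ages carry this transgene and grew in the same medium, based on Iscove's modified MEM with human FGF2, rat GDNF and fetal bovine serum. A culture age of about 60 months (60M) was set against one of about 5 months (5M), each mark being profiled in 2 libraries per age. The labels do not say whether libraries came from separate cultures or animals, nor whether both ages descend from the same line, so p-values measure only the spread between these libraries, which may be technical. The identity of the cells was not checked here against marker genes, because the positions could not be tied to genes.

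Polycomb repressive complex 2 writes H3K27me3, a mark of silenced genes that forms broad domains around developmental regulators. H3K4me3 is found at active or poised promoters, and promoters with both marks are called bivalent. The satellite repeats next to mouse centromeres are packed mainly with another mark, H3K9me3, and in cells with low DNA methylation they can take up H3K27me3. Most of these repeats lie in the unassembled part, so the lists describe only the assembled sequence beside it.

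The lists held 14769 and 12894 autosomal H3K27me3 peaks at 60M and 11838 and 14417 at 5M, and 42471 and 40451 H3K4me3 peaks at 60M and 44703 and 46111 at 5M. They give no read totals, so the depth of each library is unknown, and where a list has no peak the mark was not called, which leaves its presence unmeasured. Fewer cells with a mark and less of it per cell cannot be told apart in such lists. Borders move in steps of 1000 bp, and positions are given as listed. They follow the chromosome lengths of the mouse build mm9, for which neither a genome nor an annotation was used, so no gene, exon or sequence is named and each region goes by its position.

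Both marks were sparser near the centromeric end than the average of the rest of the autosomes, in every library, and so were some stretches beyond 8 Mb. H3K27me3 had 4.39 and 3.57 proximal peaks per Mb in the 60M libraries and 3.77 and 4.65 in the 5M libraries. Over the rest it had 6.19 and 5.41 peaks per Mb at 60M and 4.95 and 6.02 at 5M. The ages overlapped in both parts, and the proximal means differed by -0.232 peaks per Mb (60M minus 5M; exact two-sided permutation test of 2 against 2 libraries, p = 0.667). Taken within each library, the log2 ratio of proximal to remaining H3K27me3 density averaged -0.47 (SD 0.10, n = 4). For H3K4me3 the proximal density was 14.7 and 13.9 peaks per Mb at 60M and 15.2 and 15.8 at 5M, against 17.7 and 16.9 at 60M and 18.6 and 19.2 at 5M over the rest. Both 60M libraries lay below both 5M libraries, in the proximal part as in the rest, and the proximal means differed by -1.24 peaks per Mb (same exact test, p = 0.333, the smallest it allows). With lists shortened to equal length this difference was 0.247. The H3K4me3 log2 ratio averaged -0.28 (SD 0.00897, n = 4). An exact two-sided sign-flip permutation test over the 4 libraries gave p = 0.125 for each mark, the smallest it allows. The neighbouring 5 Mb, from 8 to 13 Mb, had 4.95 and 4.63 H3K27me3 peaks per Mb at 60M and 3.95 and 4.95 at 5M, and 12.3 and 11.3 H3K4me3 peaks per Mb at 60M and 12.9 and 13.3 at 5M. Against that stretch the H3K27me3 log2 ratio was -0.18, and the H3K4me3 ratio turned positive at 0.26. Windows of 1 Mb farther out varied, and some held no more peaks than any proximal window. From 16 to 17 Mb there were 67 and 55 H3K27me3 peaks at 60M and 50 and 55 at 5M. The proximal windows held at least 72 and 55 at 60M and 59 and 67 at 5M. From 15 to 16 Mb there were 168 and 162 H3K4me3 peaks at 60M and 189 and 206 at 5M. The proximal windows held at least 194 and 175 at 60M and 194 and 213 at 5M. The window from 8 to 9 Mb held more of both marks.

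**Figure D1:**
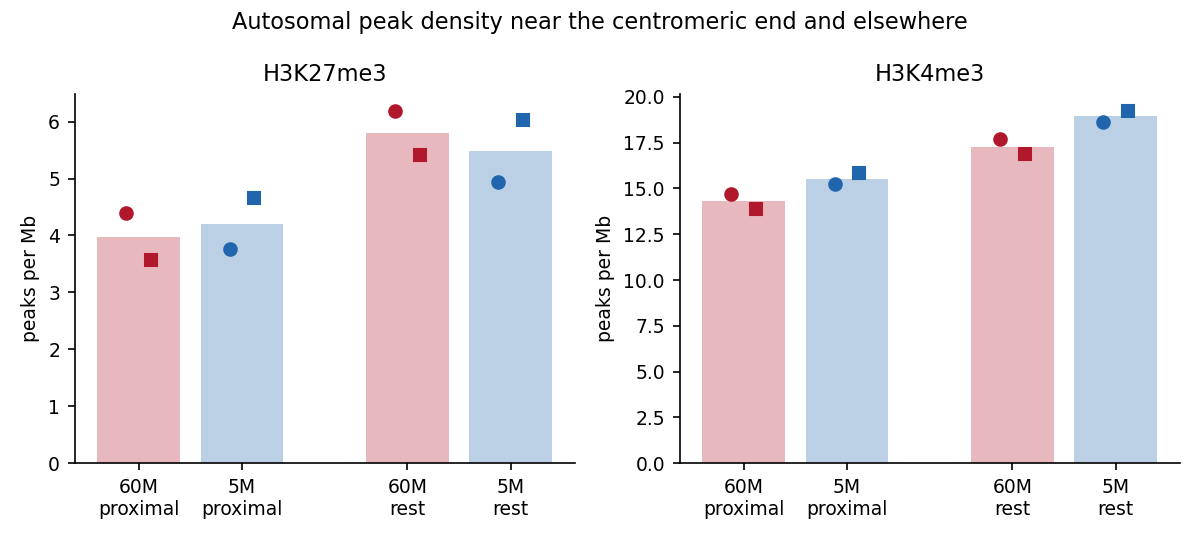
Autosomal peaks per Mb (vertical axis) for H3K27me3 and H3K4me3, in the proximal part and the rest, at 60M and 5M; bars are means of 2 libraries, circles are library 1 and squares library 2. The proximal bars are the lower ones for both marks, with H3K27me3 points of 60M and 5M overlapping.

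With the boundary at 8 Mb and all autosomes included, the proximal deficit against the whole rest was deeper for H3K27me3 than for H3K4me3. The log2 density ratios were -0.49 and -0.60 at 60M and -0.39 and -0.37 at 5M for H3K27me3, and -0.27 and -0.28 at 60M and -0.29 and -0.28 at 5M for H3K4me3. The 2 marks did not overlap, and their difference of -0.19 gave p = 0.0286 in an exact two-sided permutation test of 4 against 4 libraries. Without chromosome 19 the difference was -0.093 (exact p = 0.343), and with 1 H3K4me3 library left out the exact p was 0.0571. With the boundary at 5 Mb the difference was -0.17 (exact p = 0.314), and at 12 Mb it turned to 0.029 (exact p = 0.314). Between the ages, the H3K27me3 ratio averaged -0.55 at 60M and -0.38 at 5M, a difference of -0.17, and the groups did not overlap. This difference was -0.38 with the boundary at 5 Mb, -0.067 at 12 Mb and -0.34 at equal list lengths. The H3K4me3 ratio averaged -0.274 at 60M and -0.285 at 5M. The exact two-sided permutation test of 2 against 2 libraries gave p = 0.333 for both, the smallest it allows.

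Proximal densities varied widely between chromosomes. Chromosome 19 held 208 and 204 proximal H3K4me3 peaks at 60M and 211 and 214 at 5M, or 41.9 per Mb on average against 21.1 over its rest. Chromosomes 2, 7 and 11 were also denser in H3K4me3 than their own rest in all 4 libraries, with 20.3, 25.3 and 27.4 peaks per Mb, and 14 of the 19 were sparser. Chromosome 14 had 22 and 21 H3K4me3 peaks at 60M and 23 and 24 at 5M, and no proximal H3K27me3 peak in any of the 4 lists. For H3K27me3, chromosomes 6 and 11 were denser than their rest in all 4 libraries, at 6.60 and 8.55 peaks per Mb, and 10 were sparser.

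**Figure D2:**
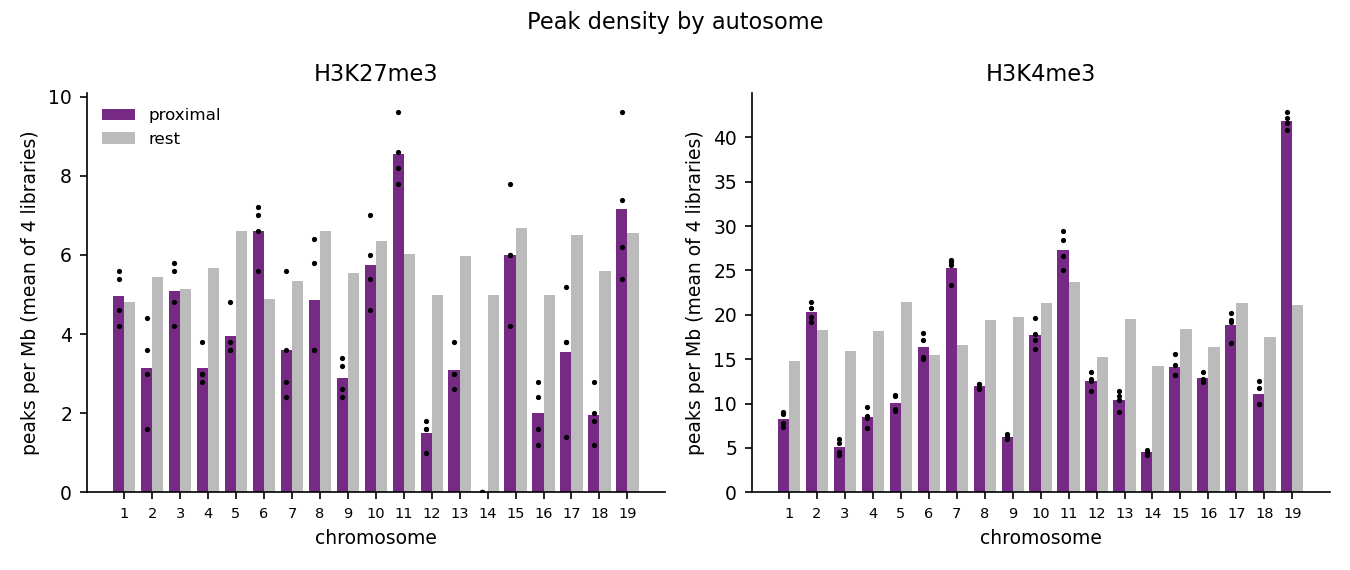
Peaks per Mb (vertical axis) on each autosome (horizontal axis) for H3K27me3 and H3K4me3; purple bars are the proximal 5 Mb and grey bars the rest, as means of 4 libraries, and dots are the proximal values of single libraries. Chromosome 19 has the tallest H3K4me3 bar, at 41.9 peaks per Mb, and chromosome 14 has no H3K27me3 bar.

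Proximal H3K27me3 peaks were weaker in signal than the average of the rest, and so were those of some stretches beyond 8 Mb. The maximum signal of each peak was ranked within its autosomal list, so that 100 marks the strongest peak of that library. Proximal H3K27me3 peaks had mean percentiles of 38.1 and 37.0 at 60M and 39.7 and 40.9 at 5M, while the rest averaged 50.3 to 50.4. The difference of proximal minus rest was -11.4 percentile points (SD 1.73, n = 4), negative in 4 of 4 libraries (exact two-sided sign-flip permutation test, p = 0.125, the smallest possible). Peaks in the lowest 25% of the list made up 41.5% and 47.5% of the proximal peaks at 60M and 42.5% and 38.9% at 5M, against 23.5 to 25.3% of the rest. Among the 18 chromosomes with proximal H3K27me3, 14 were weaker than their own rest in all 4 libraries and none was stronger in all 4. The authors' −log10 p-values against the control were lower as well, whereas those for the immunoprecipitate alone were higher. For the immunoprecipitate alone the proximal medians were 7.41 in both 60M libraries and 8.09 and 9.39 in the 5M libraries, higher in all 4 than those of the rest (6.93 and 7.0 at 60M, 7.26 and 8.06 at 5M). Against the control they were 4.09 and 4.0 at 60M and 4.52 and 4.70 at 5M, lower in all 4 than those of the rest (4.97 and 4.80 at 60M, 4.97 and 5.29 at 5M). Their part in the result was not tested. Among peaks with a −log10 p against the control of at least 6, the difference in percentile was -1.47. Against the stretch from 8 to 13 Mb it was -6.37. Windows farther out were as weak as proximal ones, which averaged 33.9 to 42.1 over the 4 libraries, with 36.1 from 14 to 15 Mb, 34.5 from 15 to 16 Mb and 37.6 from 17 to 18 Mb.

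The H3K4me3 strength contrast depended on the stretches compared. Proximal H3K4me3 peaks averaged the 51.3rd and 50.7th percentile at 60M and the 51.5th and 50.9th at 5M, against 50 over the rest, a difference of 1.14 points (SD 0.382, n = 4). Without chromosome 19 it was -2.28 in place of 1.14, so its sign rested on that chromosome. It was 4.71 with the proximal boundary at 5 Mb and 3.77 against the stretch from 8 to 13 Mb. On chromosome 19 the proximal peaks stood 20.6 points above the rest of that chromosome, whereas on chromosome 14 the difference was -37.7 points. The difference between the marks in these percentile contrasts was -12.5 points (H3K27me3 minus H3K4me3; exact two-sided permutation test of 4 against 4 libraries, p = 0.0286, the smallest possible). Without chromosome 19 every library of both marks was negative, and the difference was -10.2 points (same exact p = 0.0286). The marks lay closer among peaks with a −log10 p against the control of at least 6, at -1.47 for H3K27me3 and 2.20 for H3K4me3. With the boundary at 12 Mb the contrasts were -8.69 and -0.228, and at 5 Mb they were -11.9 and 4.71. The difference between the marks was not tested at those settings.

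**Figure D3:**
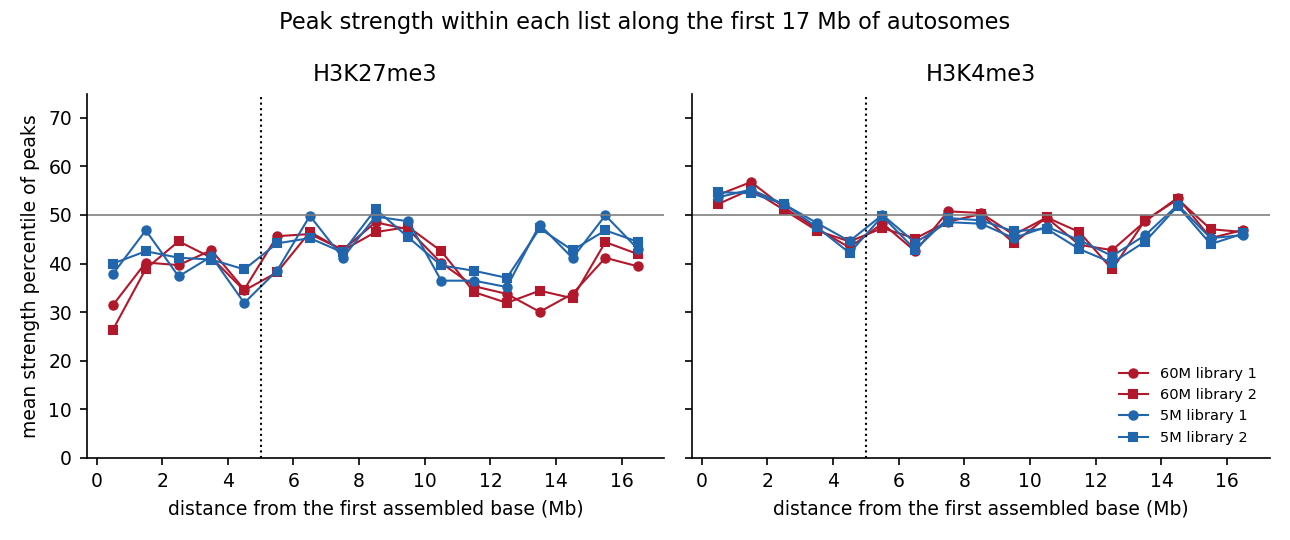
Mean strength percentile of peaks (vertical axis) against distance from the first assembled base (horizontal axis, Mb, windows of 1 Mb over 19 autosomes), with 1 line for each library and the proximal boundary dotted at 5 Mb. H3K27me3 lines lie below 50 throughout the proximal part, whereas H3K4me3 lines lie above 50 in its first 3 windows.

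Of the 837 proximal H3K27me3 regions, 509 (60.8%) were listed in a single library and 120 (14.3%) in all 4, against 54.5% and 18.9% of those on the rest. These shares were not tested. Regions with peaks in the 60M pair alone (60M-only) numbered 33, or 3.94%, and 4.43% of all autosomal H3K27me3 regions were of this kind. Regions with peaks in the 5M pair alone (5M-only) numbered 64, or 7.65%, against 6.01% of all. More 5M-only than 60M-only regions were found on 13 of 19 chromosomes and fewer on 4, and chromosome 14 had no region. Over all autosomes 5M-only regions outnumbered 60M-only ones as well, at 1578 against 1163. The order of these counts depended on the libraries. With 60M library 1 or 2 left out there were 134 and 198 60M-only regions against 92 and 79 5M-only ones, and with 5M library 1 or 2 left out 40 and 44 against 228 and 143. The other library of that age then decides alone, which raises its count by construction.

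The 5M-only H3K27me3 regions lay mostly in the first 2 Mb. From 3 to 5 Mb there were 15 60M-only and 42 5M-only regions among 385 (3.90% and 10.9%). From 5 to 8 Mb there were 18 and 22 among 452 (3.98% and 4.87%). Single windows beyond the proximal part reached similar 5M-only shares, with 9.91% from 8 to 9 Mb and 10.1% from 15 to 16 Mb.

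H3K4me3 regions were stable and followed the genome. Of the 1729, 1133 (65.5%) were listed in all 4 libraries, against 64.5% over the rest. There were 69 60M-only regions (3.99%, against 4.48% of all autosomal H3K4me3 regions) and 166 5M-only regions (9.60%, against 10.2%). With every list shortened to the same number of strongest peaks the counts were 97 and 107. The shares over all autosomes were not computed at that setting, so these counts cannot be compared with the genome. Most one-age regions of the full lists were weak, and their median percentile was 11.7 among the 60M-only and 19.2 among the 5M-only regions.

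**Figure D4:**
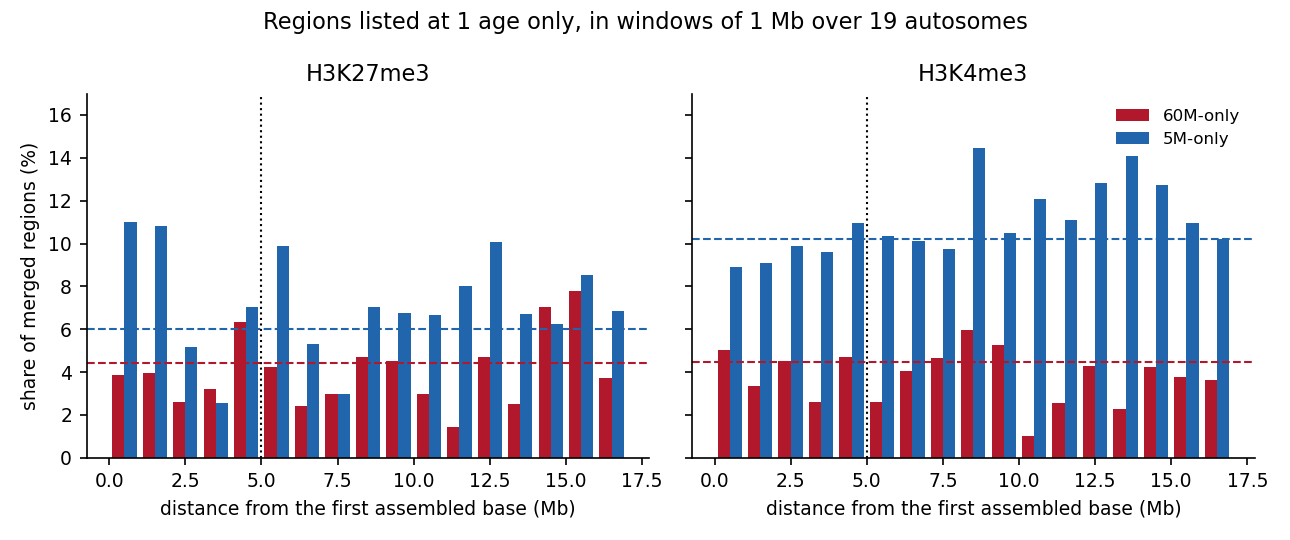
Share of merged regions listed at 1 age only (vertical axis, %) in windows of 1 Mb over 19 autosomes against distance from the first assembled base (horizontal axis, Mb); red is 60M-only, blue is 5M-only and dashed lines are the shares over all autosomes. For H3K27me3 the first 2 windows hold 11% and 10.8% 5M-only regions, against 6.01% over all autosomes.

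Among the strongest one-age H3K27me3 regions, the 2 leading 5M-only regions sat at the very edge of the assembly. At chr11:3001000-3002999 the 5M libraries listed signal maxima of 140.6 and 145.1, the 99.5th and 98.8th percentiles, and neither 60M library listed a peak. At chr18:3008000-3010999 they listed 117.1 and 119.0, again with none at 60M. The authors' −log10 p for the chromosome 11 region was 32.6 and 32.2 for the immunoprecipitate alone and 5.59 and 8.33 against the control. For the chromosome 18 region it was 91.5 and 93.0 for the immunoprecipitate alone and 4.19 and 4.43 against the control. The next 4 were chr6:3691000-3693999, chr6:3953000-3958999, chr1:4514000-4516999 and chr10:5261000-5263999, with mean percentiles of 78.5 to 86.5, and the second of these overlapped H3K4me3 in all 4 libraries. Of the 60M-only regions, a single bin at chr6:6798000-6798999 led with maxima of 74.4 and 77.2. It lies 1 kb from an H3K27me3 domain that was listed in all 4 libraries. Regions at chr16:7456000-7457999, chr11:5458000-5460999 and chr10:5715000-5715999 followed, at mean percentiles of 67.1 to 72.1, and chr19:7260000-7266999 and chr6:3919000-3920999 reached 60.8 and 50.2.

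Within the first 100 kb of assembled sequence, 11 H3K27me3 regions on 7 chromosomes were listed, 6 of them in a single library. Their peaks lay on 4 and 2 chromosomes in the 60M libraries and on 4 and 5 in the 5M libraries (exact two-sided permutation test, p = 0.667). One of them is among the tallest H3K27me3 peaks of the genome. At chr11:3095000-3099999 it reached a signal of 465.6 in 60M library 1, the highest of 14769 peaks, and was not listed in 60M library 2, whereas the 5M libraries gave 523.4 and 530.5, the second highest in both. It covered 1 kb in 60M library 1 and 5 kb in each 5M library. The −log10 p against the control was 7.0 in that 60M library and 12.4 and 10.7 in the 5M libraries, below the ceiling of 15.95 in all 3, although the value for the immunoprecipitate alone was 185 at 60M and 166 and 170 at 5M. H3K4me3 peaks flanked it without overlap in all 4 libraries, at chr11:3092000-3094999 and chr11:3101000-3103999, with mean percentiles of 98.6 and 94.0. The single H3K27me3 region of this stretch listed in all 4 libraries, chr6:3089000-3090999, was weak, with signals of 25 and 37.5 at 60M and 30.8 and 33.4 at 5M.

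H3K4me3 had 13 regions in the same 100 kb, on chromosomes 2, 10, 11, 14 and 17, and 8 of them were listed in all 4 libraries. At chr2:3035000-3037999 the maxima were 525.9 and 498.6 at 60M and 538.4 and 493.7 at 5M. The regions chr17:3044000-3044999, chr17:3050000-3050999 and chr2:3010000-3011999 were 60M-only, with mean percentiles of 2.83 to 10.2, and chr10:3001000-3002999 was 5M-only at 2.15.

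The strongest stable H3K27me3 regions were broad domains that also carried H3K4me3 in all 4 libraries. A pair of neighbouring domains, chr6:6800000-6810999 and chr6:6815000-6830999, led, with mean percentiles of 99.5 and 99.4. In the chr6:6800000 domain the longest call spanned 6 and 5 kb in the 60M libraries and 11 kb in both 5M libraries. In the chr6:6815000 domain it spanned 10 and 5 kb in the 60M libraries and 16 kb in both 5M libraries, so the 60M lengths lay below the 5M lengths in both. Because uncalled bins can split a domain, the length of single calls understates it. Covered lengths were 9 and 8 kb in the 60M libraries and 11 kb in both 5M libraries for the chr6:6800000 domain, and 13 and 11 kb in the 60M libraries and 16 kb in both 5M libraries for the chr6:6815000 domain. The widest region, chr7:4777000-4794999, had calls of 17 and 15 kb at 60M, against 17 and 18 kb in those of 5M, so the ages touched. At chr3:5208000-5222999 the 60M libraries had calls of 12 and 9 kb and the 5M libraries of 10 and 15 kb, and the ages overlapped. At chr19:5743000-5753999 both 60M libraries had calls of 7 kb and both 5M libraries of 11 kb, but the covered lengths were close, at 10 kb in both 60M libraries and 11 kb in both 5M libraries. At chr1:4478000-4491999 the 60M libraries had calls of 8 and 7 kb and the 5M libraries of 9 and 13 kb, while 12 and 10 kb were covered at 60M and 13 kb in both 5M libraries. The sixth strongest, chr19:5079000-5086999, differed less, with calls of 7 and 8 kb in the 60M libraries and again 7 and 8 kb in the 5M libraries.

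Within the 6 widest domains with both marks there were 11 H3K4me3 regions listed in all 4 libraries, and 9 of them had a higher percentile in both 60M libraries than in either 5M library. None was lower in both. At chr1:4481000-4484999 the percentile was 80.8 and 89.3 at 60M and 70.8 and 72.9 at 5M, and at chr1:4486000-4488999 it was 62.3 and 69.9 at 60M and 52.2 and 50.3 at 5M. At chr6:6828000-6832999 it was 65.2 and 72.0 at 60M and 52.8 and 51.7 at 5M, and at chr6:6824000-6825999, a weak site, 25.9 and 42.7 at 60M and 10.0 and 6.32 at 5M. The ages did not overlap at these 4 sites. At chr7:4787000-4788999 they did, with 59.9 and 61.5 at 60M and 60.5 and 59.8 at 5M.

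The same order held over all proximal regions with both marks, a set from which the sites just described were not removed. Among the 1133 proximal H3K4me3 regions of all 4 libraries, both 60M percentiles exceeded both 5M percentiles in 213 (18.8%, against 21.3% of all autosomal regions of this kind) and lay below both in 539 (47.6%, against 44.8%). The 60M lists are shorter, which by construction lowers the percentile of most shared peaks. In the 56 regions that also had H3K27me3 in all 4 libraries, 34 were higher at 60M and 4 lower. In the 985 without H3K27me3 in any library, 148 were higher and 520 lower. Median percentiles of the 56 were 62.6 and 61.5 at 60M and 58.0 and 59.9 at 5M, and those of the 985 were 66.3 and 62.7 at 60M and 67.7 and 68.3 at 5M. At equal list lengths, 42 of 52 regions with both marks were higher at 60M and 1 was lower, while 232 were higher and 307 lower among 913 regions without H3K27me3. Over the rest of the autosomes, 822 were higher (50.2%) and 162 lower among 1637 regions with both marks. Without H3K27me3, 5165 were higher and 13981 lower among 28449. At equal list lengths 71.4% of the regions with both marks on the rest were higher and 2.42% lower. Those without H3K27me3 on the rest were then higher in 33.0% and lower in 30.6%, against 25.4% and 33.6% in the proximal part. The higher 60M rank of regions with both marks was thus not particular to the centromeric end.

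**Figure D5:**
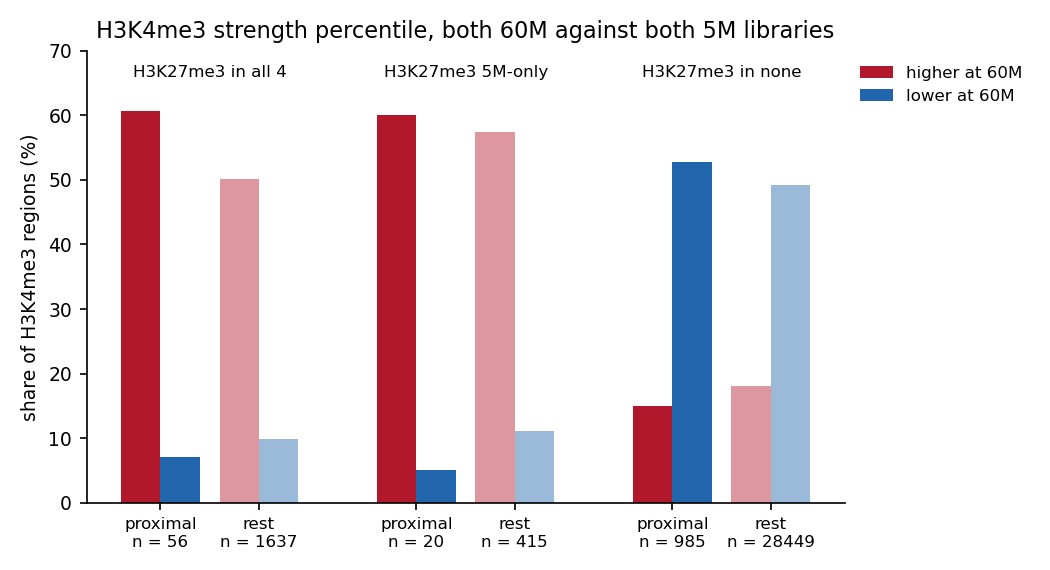
Share of H3K4me3 regions listed in all 4 libraries (vertical axis, %) whose strength percentile in both 60M libraries was above (red) or below (blue) that in both 5M libraries, by H3K27me3 and by part of the autosome (pale bars, rest). Proximal regions with H3K27me3 in all 4 libraries were higher at 60M in 60.7% of cases and those with none in 15.0%.

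The share of stable proximal H3K4me3 regions that carried H3K27me3 was lower in both 60M libraries than in either 5M library. An H3K27me3 peak overlapped 83 and 74 of the 1133 regions in the 60M libraries (7.33% and 6.53%) and 98 and 127 in the 5M libraries (8.65% and 11.2%). The exact binomial (Clopper-Pearson) 95% intervals, which cover counting error only, were 5.88 to 9.0% and 5.16 to 8.13% at 60M and 7.08 to 10.4% and 9.43 to 13.2% at 5M. The means were 6.93 ± 0.562% at 60M and 9.93 ± 1.81% at 5M (SD, n = 2 each; exact two-sided permutation test, p = 0.333, the smallest possible), a difference of -3.0 percentage points. Without 5M library 2 this difference was -1.69. Among peaks with a −log10 p against the control of at least 6 it was -1.20, and the ages were no longer separate (exact p = 0.667). Over the rest of the autosomes the means were 8.26 ± 0.145% at 60M and 10.0 ± 1.93% at 5M. Proximal minus rest, the share differed by -1.03 and -1.62 points in the 60M libraries and by -0.0015 and -0.18 points in the 5M libraries, a mean of -0.71 (exact two-sided sign-flip permutation test, p = 0.125, the smallest possible). The mean rested on the 60M libraries, and was -0.40 without 60M library 2. H3K27me3 was called in the 60M pair alone at 3 of the 1133 regions (0.265%, against 0.359% of all autosomal regions of this kind) and in the 5M pair alone at 20 (1.77%, against 1.27%).

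Few H3K27me3 regions away from H3K4me3 were listed in all 4 libraries. An H3K4me3 peak of at least 1 library lay on 203 of the 837 proximal H3K27me3 regions, and the other 634 had none. In the first class 91 (44.8%) were listed in all 4 libraries, close to the 45.7% of the rest of the autosomes. In the second class 29 (4.57%) were, against 9.59% over the rest. On H3K4me3 peaks there were 6 60M-only and 26 5M-only regions (2.96% and 12.8%, against 2.6% and 8.41% over the rest). Away from them there were 27 and 38 (4.26% and 5.99%, against 5.09% and 5.11%). These shares were not tested.

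The strongest stable H3K4me3 regions were narrower than these H3K27me3 domains, and H3K27me3 was called at none of the 6. The region chr12:3805000-3809999 led with maxima of 811.0 and 734.5 at 60M and 840.7 and 788.0 at 5M. The regions chr16:4211000-4215999, chr18:5590000-5594999, chr10:5957000-5960999, chr2:4801000-4804999 and chr12:4481000-4485999 followed, all above the 99th mean percentile and 4 or 5 kb wide. These maxima are the authors' values and rank peaks within a list only. The widest H3K4me3 region, chr11:4957000-4966999, had longest calls of 6 and 10 kb at 60M and of 9 kb in both 5M libraries. In 60M library 1 the call was split, and 9 kb were covered. At chr15:7759000-7766999 a region with H3K27me3 in all 4 libraries had 8 kb in both 60M libraries and 7 kb in both 5M libraries. The remaining wide regions, chr19:5725000-5732999 and chr19:7339000-7345999, spanned 8 and 7 kb when merged over all libraries. The first had calls of 8 kb except in 60M library 2, where the longest was 5 kb and 7 kb were covered. The second had calls of 7 kb except in 5M library 1, with 6 kb.

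The strongest 60M-only H3K4me3 regions reached lower ranks than the strongest 5M-only ones. At chr19:5415000-5416999 the 60M libraries listed 189.1 and 224.1, a mean percentile of 46.0, and at chr7:4801000-4801999 177.5 and 187.3. The next 4, chr19:6518000-6519999, chr7:4488000-4489999, chr9:7798000-7798999 and chr8:3567000-3568999, had mean percentiles of 34.8 to 38.0. Among the 5M-only regions, chr7:6663000-6664999 reached 385.5 and 395.6, a mean percentile of 74.2, followed by chr19:6070000-6071999 with 357.0 and 363.0. Regions at chr10:5991000-5992999, chr17:5341000-5343999, chr11:4783000-4784999 and chr2:6021000-6022999 completed the 6. None of the 6 named regions in either direction overlapped H3K27me3 in any library.

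Mean peak widths near the centromeric end followed the ages much as elsewhere, whereas the share of single-bin H3K27me3 peaks differed more between the ages there. Proximal H3K27me3 peaks had mean widths of 1.90 and 1.92 kb (60M) against 2.14 and 2.37 kb (5M). Over the rest they had mean widths of 1.98 and 1.96 kb (60M) against 2.16 and 2.38 kb (5M). Peaks of a single bin made up 65.0% and 62.8% of the proximal H3K27me3 peaks at 60M and 56.1% and 49.1% at 5M. Over the rest they made up 56.3% and 56.6% at 60M and 54.2% and 48.6% at 5M. The means differed by 11.3 points in the proximal part and by 5.11 over the rest (60M minus 5M), and this contrast was not tested. Proximal H3K4me3 peaks had mean widths of 2.27 and 2.31 kb (60M) against 2.14 and 2.17 kb (5M). Relative to the rest, the log2 width ratio differed between 60M and 5M by -0.031 for H3K27me3 and -0.013 for H3K4me3 (exact two-sided permutation test, p = 0.333 for each, the smallest possible). The sign for H3K27me3 turned at equal list lengths. Of the 120 stable H3K27me3 regions, 10 covered more bases in both 60M libraries (8.33%, against 8.34% of all) and 28 covered fewer (23.3%, against 16.6%). Of the 1133 stable H3K4me3 regions, 73 covered more (6.44%, against 7.47%) and 24 fewer (2.12%, against 2.52%). Peaks of at least 10 kb numbered 3 in each 60M library and 5 and 7 in the 5M libraries for H3K27me3. They made up 0.719% and 0.885% of the proximal peaks at 60M and 1.40% and 1.58% at 5M, near the 0.864% and 0.669% at 60M and 1.40% and 1.92% at 5M over the rest.

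Libraries resembled each other near the centromeric end about as they did elsewhere for H3K4me3, and less for H3K27me3. The Jaccard index, the share of covered bases that 2 libraries have in common, was 0.415 between the proximal H3K27me3 peaks of the 60M libraries, 0.503 between those of 5M and 0.320 to 0.363 across ages. Over the rest it was 0.439, 0.522 and 0.373 to 0.404. For H3K4me3 the proximal indices were 0.841, 0.892 and 0.751 to 0.774, against 0.836, 0.888 and 0.734 to 0.759 over the rest.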

How the data were processed

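Formaldehyde-fixed chromatin was sonicated, for some libraries perhaps after micrococcal nuclease (the labels' protocols leave this unspecified), and immunoprecipitated for either mark. CASAVA 1.8.4 and Bowtie 1.1.2 and the build mm10 are named in the submitters' processing notes. A peak caller's name was not given in the sources used here. Each library has 1 deposited list. Per the file headers each peak has a maximum signal, −log10 p-values in 2 columns (without and with the control) and its q-value. The deposited −log10 p-values against the control run from 3.01 to a ceiling of 15.95, and the highest deposited q-value is 0.00097. The scaling of the deposited signal is unstated, so it was ranked within each autosomal list. Peaks end beyond mm10 on 9 of 20 chromosomes (1331 peaks); mm9 lengths (GenomeInfoDb 1.38.1) were used, and nothing was converted. The X chromosome was left out.

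Calculations used Python 3.11.15, numpy 2.4.6, pandas 2.3.3 and scipy 1.17.1, with figures by matplotlib 3.10.9. Densities are peaks per Mb of 95 Mb or of the remaining autosomal length. Overlap means at least 1 bp. Tests were exact permutation tests over libraries, 2 against 2 (smallest p 0.333), 4 against 4 (0.0286) or sign flips over 4 (0.125). The code for region calls was run on simulated lists of well-separated peaks of equal width. These lists held no split domains or single-bin peaks, so they do not show how the calls fare on such peaks.

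The members, lists and named regions were chosen with earlier results of these data known. The rule named, for each mark, the 6 strongest stable regions, the 6 strongest of each direction, all that start in the first 100 kb, the 4 widest, and the 6 widest H3K27me3 regions with both marks. The strength order by H3K27me3, and the sites quoted inside domains, were added after the data were seen. Gene names, planned if an annotation of the build was at hand, and markers were not analysed here.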

Additional observations from a re-analysis of the deposited data

Results flagged for a closer look

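The contrast between the proximal part and the rest differed between the marks in both measures compared. For the strength percentile every H3K27me3 library moved one way and every H3K4me3 library the other, with averages of -11.4 and 1.14 points and a difference of -12.5 (exact two-sided permutation test of 4 against 4 libraries, p = 0.0286). Without chromosome 19 all H3K4me3 libraries were negative too, from -2.79 to -1.85, and the difference was -10.2 (same exact p = 0.0286). At a −log10 p against the control of at least 6 the averages were closer, at -1.47 for H3K27me3 and 2.20 for H3K4me3, and their difference was not tested. For the log2 density ratio both marks were negative, at -0.47 for H3K27me3 and -0.28 for H3K4me3, and the difference of -0.19 gave the same exact p = 0.0286. These were the only measures compared between the marks, and the p-values stay at 0.0286 under Benjamini-Hochberg adjustment over both but become 0.0571 under Holm's. The density contrast did not pass the threshold without chromosome 19 (-0.093), without any 1 of the H3K4me3 libraries or with the boundary at 5 Mb (-0.17), and it turned to 0.029 at 12 Mb.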

How the results depend on the processing

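Over 19 results and 208 alternative values, 162 kept their direction and their side of the threshold or stayed within 1.5 times of the count, and the cause was not tested for the others. Among the 19, only the density difference between the marks could pass the threshold of 0.05. The strength difference between the marks could pass it too, but was not among them and was rerun only without chromosome 19. The other tests among the 19 have a smallest p of 0.125 or more, so for them only a change of sign could show. The H3K27me3 strength contrast was negative under every alternative run, from -12.5 without chromosome 19 to -1.47 at the stricter −log10 p. Signs turned for the H3K4me3 proximal density (60M minus 5M -1.24, and 0.247 at equal list lengths), the H3K4me3 log2 density ratio (0.26 against the stretch from 8 to 13 Mb), its age difference (-0.0091 with the boundary at 12 Mb) and the H3K4me3 strength contrast (-0.228 at 12 Mb, -2.28 without chromosome 19, an alternative chosen after seeing the data). They also turned for the H3K27me3 proximal density (-0.232; 0.0322 at 12 Mb, -0.674 to 0.211 with 1 library left out) and the H3K27me3 width contrast (0.0186 at 5 Mb, 0.0504 at equal lengths, 0.0269 at the stricter −log10 p). The density difference between marks was -0.174 (exact p = 0.314) at 5 Mb, 0.0292 (exact p = 0.314) at 12 Mb, -0.0933 without chromosome 19 and -0.216 to -0.140 with 1 library left out.

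Moving the boundary changes counts by construction: at 5 Mb and 12 Mb there were 31 and 117 60M-only and 68 and 295 5M-only H3K4me3 regions, 15 and 60 60M-only and 42 and 113 5M-only H3K27me3 regions, and 15 and 60 regions with both marks whose H3K4me3 ranked higher at 60M against 1 and 9 lower. Equal list lengths gave 107 5M-only H3K4me3 regions, 20 60M-only H3K27me3 regions and 1 region with both marks ranked lower. The stricter −log10 p left 4 60M-only and 19 5M-only H3K27me3 regions, and 22 regions with both marks ranked higher and 0 lower. With 1 library left out, 60M-only H3K4me3 regions ran from 82 to 146, 60M-only H3K27me3 regions from 40 to 198, 5M-only H3K27me3 regions from 79 to 228, and regions ranked lower from 5 to 12.

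Replicate numbers are shared between the ages, but nothing ties equal numbers to a common culture, and their deviations correlated at 0.0400 (H3K27me3) and 0.0838 (H3K4me3) over stable autosomal regions. With the replicate number as a block the differences are the same (-3.0 points for the share with both marks, for example), and the exact sign-flip p cannot fall below 0.5; it changed no call. Depth is unknown, so how far it limits the lists could not be measured.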
